A study of Homo sapiens with 27 samples.

Results

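The genes described here are 10 markers of the neuronal cytoskeleton and of axon growth, NEFM, NEFL, GAP43, STMN2, CRMP1, TAGLN3, KIF5C, KIF1A, RTN1 and UCHL1, chosen by symbol as the rows whose Ensembl gene ID maps to them. All 10 were among the 41686 human genes of the first table, on shRNA knockdown, and 9 were among the 34742 of the second, on siRNA knockdown. STMN2 in the second table was not analysed here. The cells were SHP77, a human line of small cell lung cancer, a lung tumour with neuroendocrine and neuron-like gene expression. The study asked what circRMST, a circular RNA from the RMST gene, and its partners SOX2 and NKX2-1 do in these cells. In the first table, SHP77 cells carried circRMST shRNA 1 (n = 2 libraries), circRMST shRNA 2 (n = 2) or an shRNA against GFP (shGFP, n = 2), carried in by lentivirus, with puromycin (3 µg/ml, 3 days or longer) to select them. In the second table, they had been transfected for 72 hours with SOX2 siRNA 1, SOX2 siRNA 2, NKX2-1 siRNA 1 or NKX2-1 siRNA 2 (n = 2 each) or with a control siRNA (si-control, n = 3). All groups are the same cell line, so that each comparison concerns 1 line in culture, and the labels do not say whether the shRNA cells were pools or clones. The 10 ChIP-seq samples of the series were not analysed here.

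Neurons hold their long axons open with a scaffold of neurofilaments, which are intermediate filaments built from light, medium and heavy chains, and of microtubules. Stathmins and collapsin response mediator proteins tune the growth of microtubules, growth-associated proteins act under the membrane of the growth cone, and kinesin motors carry vesicles, mitochondria and filament subunits along the microtubules. Neuroendocrine tumours such as small cell lung cancer express many of these genes, and UCHL1 (PGP9.5) is in use as a stain for them.

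Of the 10 genes, 7 had a promoter sequence to search, the 250 bases before the start site in RefSeq (GRCh38.p14). The lines give GAP43 and RTN1, which rose most after circRMST shRNAs among those 7, and CRMP1 and TAGLN3, which fell, at chr3:115623260-115623509 (plus strand), chr14:59870777-59871026 (minus strand), chr4:5893087-5893336 (minus strand) and chr3:111998672-111998921 (plus strand). Capitals mark the only match found in them to any motif searched.
GAP43: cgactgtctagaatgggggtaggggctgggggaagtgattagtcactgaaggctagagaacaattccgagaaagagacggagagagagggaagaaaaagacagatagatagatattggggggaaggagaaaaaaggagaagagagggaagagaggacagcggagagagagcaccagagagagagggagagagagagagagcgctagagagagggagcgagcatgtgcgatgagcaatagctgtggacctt
RTN1: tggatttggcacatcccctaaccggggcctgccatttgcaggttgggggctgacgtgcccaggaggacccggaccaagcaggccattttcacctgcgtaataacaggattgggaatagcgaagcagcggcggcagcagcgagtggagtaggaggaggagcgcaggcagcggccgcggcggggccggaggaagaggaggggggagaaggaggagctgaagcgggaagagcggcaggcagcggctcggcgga
CRMP1: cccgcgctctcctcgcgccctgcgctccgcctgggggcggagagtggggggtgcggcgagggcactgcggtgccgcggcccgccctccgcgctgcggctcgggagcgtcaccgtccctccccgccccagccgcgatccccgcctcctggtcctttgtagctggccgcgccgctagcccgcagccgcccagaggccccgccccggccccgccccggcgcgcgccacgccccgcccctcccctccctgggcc
TAGLN3: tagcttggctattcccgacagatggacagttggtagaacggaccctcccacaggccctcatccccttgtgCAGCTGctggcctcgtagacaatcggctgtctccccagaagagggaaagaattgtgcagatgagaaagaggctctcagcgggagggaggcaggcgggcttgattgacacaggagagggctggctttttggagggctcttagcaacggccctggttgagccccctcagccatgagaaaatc
The motifs were CATTGT for SOX factors, CAAGTG for NKX2 factors and CAGCTG as an E-box, each on both strands. Among 24882 promoters of the same length, 9.7% held CATTGT, 9.7% CAAGTG and 13.9% CAGCTG. In the 7 promoters, CAGCTG stood once, in TAGLN3 from base -180, and the other motifs had 0 matches. The promoters differ widely in base composition, with 51.6% G and C and 7 CpG dinucleotides in GAP43, 66.0% and 19 in RTN1, 82.8% and 37 in CRMP1, and 57.6% and 7 in TAGLN3, against a median of 57.6% G and C over all promoters searched.

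By position in GRCh38.p14 of RefSeq, the same build as the hg38 of the submitters' processing notes, NEFM (ENSG00000104722.13) spans 24913761 to 24919093 and NEFL (ENSG00000277586.1) spans 24950955 to 24956612 on chromosome 8. These neurofilament genes lie 31.9 kb apart with 0 protein-coding genes between them. STMN2 (ENSG00000104435.13) lies elsewhere on chromosome 8, at 79611117 to 79666158. GAP43 (ENSG00000172020.12, 115623510 to 115721483) and TAGLN3 (ENSG00000144834.13, 111998922 to 112013885) are on chromosome 3. CRMP1 (ENSG00000072832.14, 5820764 to 5893086) and UCHL1 (ENSG00000154277.12, 41256928 to 41268455) are on chromosome 4. KIF5C (ENSG00000168280.16, 148875227 to 149026759) and KIF1A (ENSG00000130294.14, 240713767 to 240821403) are on chromosome 2, and RTN1 (ENSG00000139970.16) is on chromosome 14 at 59595976 to 59870776. All are protein-coding, and the counts are per gene.

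The libraries of the first table held 46.9 to 57.4 M reads, of which 46.5 to 51.5% were mitochondrial, and those of the second 15.5 to 50.1 M. The neuroendocrine markers INSM1, CHGA, SYP, DDC, NCAM1 and DLL3 were expressed in every group, and NEUROD1, POU2F3 and YAP1, markers of other types of small cell lung cancer, summed to at most 2.25 normalized counts per library outside shGFP. The knockdowns were read on their targets. SOX2 fell 2.70-fold after its own siRNAs and NKX2-1 fell 2.45-fold after its own. RMST after circRMST shRNAs had a log2 change of -0.12 (adjusted p = 0.478), and a count per gene, which does not set the circle apart, checks nothing about it. The shGFP libraries carried more low-level reads than the others of their table. Of the 1547 protein-coding genes that the second table leaves unlisted or at 0, 82.4 and 85.6% had a read in shGFP, against 14.7 to 20.5% in the circRMST shRNA libraries. The 6 fibroblast markers summed to 764 to 812 normalized counts in circRMST shRNA 1, 373 to 450.4 in circRMST shRNA 2 and 178 to 259 in shGFP, nearly all of it LUM in the knockdowns. The 6 blood and endothelial markers summed to 147 to 180 in the circRMST shRNA libraries and 384 to 397 in shGFP. PECAM1 made up most of that sum, and in the circRMST shRNA libraries PTPRC, CD3E, CD68 and HBB stood at 0 to 3.68 and VWF at 0 to 12.4. In the second table the fibroblast sum was 219 to 291 with SOX2 siRNAs, 67.01 to 115 with NKX2-1 siRNAs and 84.9 to 115.8 with si-control. The blood and endothelial sum was 71.4 to 135.6 with SOX2 siRNAs, 142.5 to 436 with NKX2-1 siRNAs and 339.7 to 353 with si-control. Whether other cells took part in any result was not tested.

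After circRMST shRNAs, 7 of the 9 genes that could be tested rose and 2 fell. RTN1, NEFM, GAP43, NEFL, KIF5C, KIF1A and UCHL1 were higher than in shGFP, by 2.55-fold for RTN1 to 1.24-fold for UCHL1, and CRMP1 and TAGLN3 were lower, by 1.90-fold and 1.25-fold. Across all 19068 genes tested, 27.8% were called higher and 25.9% lower, where called means an adjusted p under 0.05 in limma. For all 9 genes the knockdown libraries and the shGFP libraries did not overlap, as was so for 56.7% of all genes tested. The median log2 change was 0.62 over the 9 genes and 0.00148 over all genes tested.

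**Figure D1:**
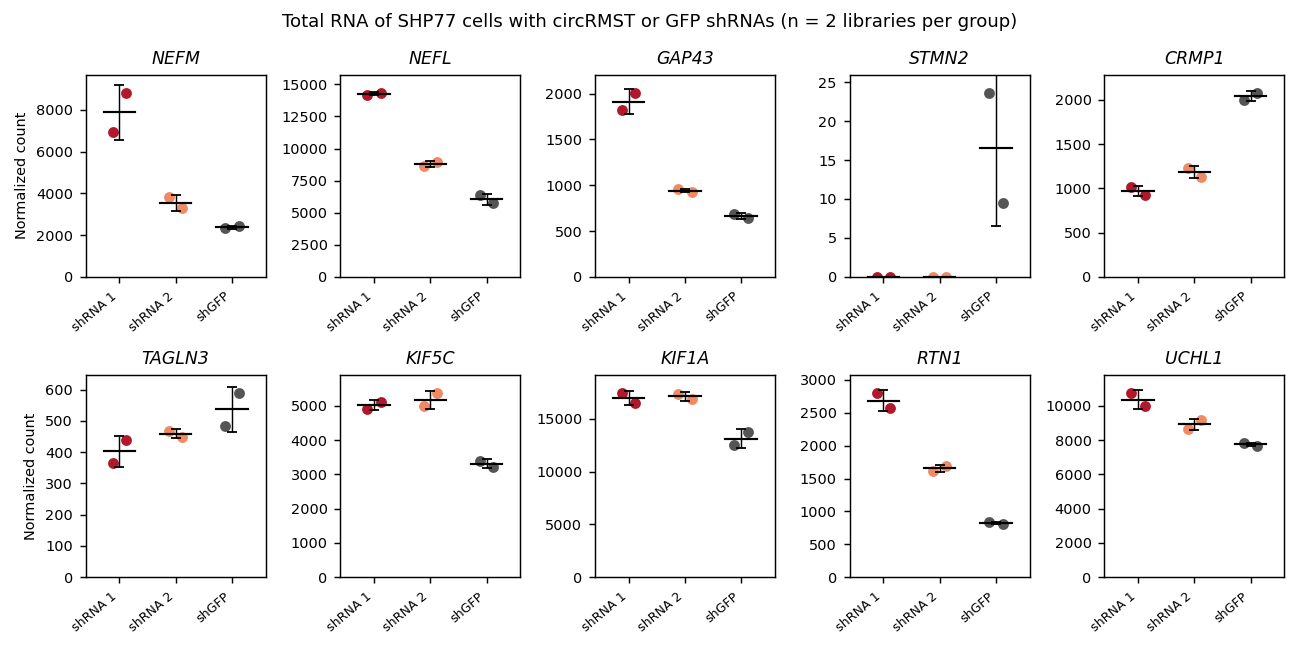
Normalized count (vertical axes, from 0) of the 10 genes in every library with circRMST shRNA 1, circRMST shRNA 2 or shGFP; points are libraries, bars the mean and whiskers the SD of 2 libraries. NEFM, NEFL, GAP43 and RTN1 step down from shRNA 1 to shRNA 2 to shGFP, CRMP1 is highest in shGFP, and STMN2 has no read outside shGFP.

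After siRNAs against SOX2, 6 of the 9 genes fell, UCHL1 rose by 1.06-fold, and KIF1A and CRMP1 were not called. GAP43 fell most, by 2.58-fold, followed by RTN1, NEFL, NEFM, KIF5C and TAGLN3. Across all 16750 genes tested, 27.6% were called higher and 28.7% lower. The libraries of both groups did not overlap for 6 of the 9 genes, against 49.5% of all genes. The median log2 change was -0.23 over the 9 genes and 0.0071 over all genes tested.

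After siRNAs against NKX2-1, 5 of the 9 genes fell, RTN1 and TAGLN3 rose, and KIF1A and CRMP1 were not called. NEFM fell most, by 1.82-fold, then GAP43, NEFL, KIF5C and UCHL1. Across all genes tested, 18.5% were called higher and 21.4% lower. For 7 of the 9 genes the groups did not overlap, against 33.9% of all genes. The median log2 change was -0.13 over the 9 genes and -0.0043 over all genes tested. The SOX2 and NKX2-1 comparisons share their 3 si-control libraries.

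**Figure D2:**
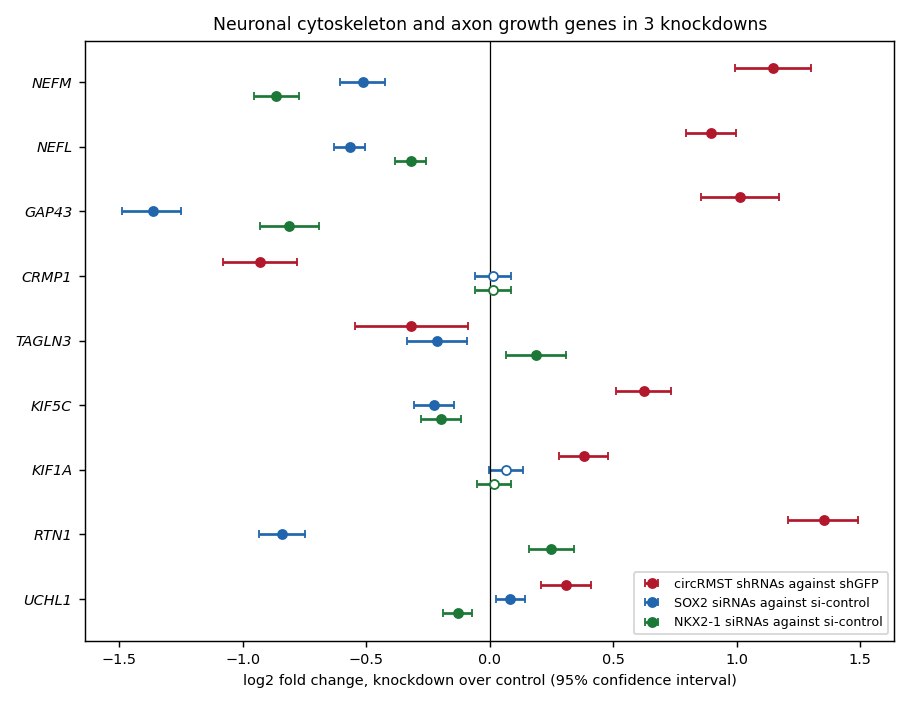
Log2 fold change with its 95% confidence interval (horizontal axis) of the 9 tested genes after circRMST shRNAs over shGFP, and after SOX2 and NKX2-1 siRNAs over si-control; open points were not called. The filament genes and GAP43 lie right of 0 for circRMST and left of 0 for both siRNA targets, and RTN1 lies on opposite sides of 0 for SOX2 and NKX2-1.

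NEFM and NEFL, the medium and light neurofilament chains, moved the same way as each other in every knockdown. NEFM had 6940.0 and 8805 normalized counts with circRMST shRNA 1 and 3802 and 3279 with shRNA 2, against 2325 and 2423 with shGFP. Every knockdown library stood above both controls, and shRNA 1 stood apart above shRNA 2. The log2 change was 1.15 (SE 0.0736, adjusted p = 6.28e-12). NEFL had 14170.1 and 14331 normalized counts with shRNA 1 and 8655 and 8970.5 with shRNA 2, against 6338 and 5723 with shGFP. The order of the groups was the same, with no overlap, and the log2 change was 0.90 (SE 0.0498, adjusted p = 4.83e-13).

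Both neurofilament genes fell after the siRNAs. NEFM had 3168 and 3581 normalized counts with SOX2 siRNA 1, 4349 and 4237 with SOX2 siRNA 2, 2848 and 2539 with NKX2-1 siRNA 1 and 3468 and 3164 with NKX2-1 siRNA 2, against 5549.6, 5324 and 5428 with si-control. All 8 knockdown libraries lay below the 3 controls. The log2 changes were -0.51 (SE 0.0440, adjusted p = 1.04e-10) for SOX2 and -0.86 (SE 0.0440, adjusted p = 7.08e-15) for NKX2-1. NEFL had 4364 and 4380.0 with SOX2 siRNA 1, 5789 and 5939 with SOX2 siRNA 2, 6099.7 and 6070.0 with NKX2-1 siRNA 1 and 5868 and 5989 with NKX2-1 siRNA 2, against 7455, 7602 and 7452 with si-control. SOX2 siRNA 1 gave the lowest NEFL, the other reagents lay close together, and none reached the controls. The log2 changes of NEFL were -0.57 (SE 0.0302, adjusted p = 5.86e-15) for SOX2 and -0.32 (SE 0.0302, adjusted p = 1.79e-09) for NKX2-1.

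GAP43, the growth-associated protein of the growth cone membrane, gave the largest fall of the 9 genes after SOX2 siRNAs. It had 1816 and 2007 normalized counts with circRMST shRNA 1 and 956 and 928 with shRNA 2, against 687 and 642 with shGFP, a log2 change of 1.01 (SE 0.0758, adjusted p = 8.84e-11). The groups formed separate steps, with shRNA 1 highest and shGFP lowest. It had 439.9 and 482 with SOX2 siRNA 1, 539.5 and 494 with SOX2 siRNA 2, 609.7 and 601 with NKX2-1 siRNA 1 and 849.9 and 843 with NKX2-1 siRNA 2, against 1283, 1317 and 1178 with si-control. No library of a group overlapped any other group, from SOX2 siRNA 1 at the bottom to si-control at the top. The log2 changes were -1.37 (SE 0.0582, adjusted p = 5.11e-17) for SOX2 and -0.81 (SE 0.0582, adjusted p = 8.23e-12) for NKX2-1. In bulk RNA, a smaller share of cells with a gene and less of its RNA per cell cannot be told apart, here and for the other genes.

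STMN2 encodes stathmin-2, which keeps axonal microtubules dynamic. It had 0 reads in all 4 circRMST shRNA libraries, against 23 and 10 reads in the shGFP libraries, or a mean of 16.6 ± 10.0 normalized counts (SD, n = 2). The shGFP mean was 5.27-fold above a floor of 3 reads per library. That floor covers counting error in the shRNA libraries only. The spread between the shGFP libraries, at 23.6 and 9.49 normalized counts, does not enter that ratio, so it is no lower bound. STMN2 fell short of the mean of 10 normalized counts needed for the test. Its difference of 16.6 lay within the excess of shGFP over the other libraries in the 1547 genes above, whose median was 4.03 and whose 99th percentile was 38.7 normalized counts, and whether it differs from them was not tested.

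CRMP1, a collapsin response mediator protein that relays semaphorin signals to the cytoskeleton, fell after circRMST shRNAs. It had 1015 and 929 normalized counts with shRNA 1 and 1229 and 1133 with shRNA 2, against 2000.5 and 2079.6 with shGFP. Every knockdown library lay far below both controls, with shRNA 1 lowest. The log2 change was -0.93 (SE 0.0711, adjusted p = 1.32e-10). In the second table CRMP1 had 3436 and 3387 with SOX2 siRNA 1, 3195 and 3307 with SOX2 siRNA 2, 3369 and 3644 with NKX2-1 siRNA 1 and 3145 and 3185 with NKX2-1 siRNA 2, against 3269.6, 3338 and 3295 with si-control. The knockdown libraries lay on both sides of the controls. The log2 change was 0.01 for SOX2 (95% confidence interval -0.06 to 0.09, adjusted p = 0.785) and 0.01 for NKX2-1 (-0.06 to 0.09, adjusted p = 0.811).

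TAGLN3, a neuronal relative of the actin-binding protein transgelin, was called lower after circRMST shRNAs and SOX2 siRNAs and higher after NKX2-1 siRNAs. It had 367 and 438 normalized counts with circRMST shRNA 1 and 469 and 448 with shRNA 2, against 485 and 588 with shGFP. The knockdown libraries lay below the controls, but the highest of them by little. The log2 change was -0.32 (SE 0.110, adjusted p = 0.0186), and over the alternatives tried its adjusted p ran from 0.00123 to 0.315, reaching 0.315 without shGFP replicate 2, where the change was -0.18. Without circRMST shRNA 1 replicate 1 the adjusted p was 0.0756.

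After siRNAs, TAGLN3 had 701 and 638 normalized counts with SOX2 siRNA 1, 743 and 759.7 with SOX2 siRNA 2, 965 and 923 with NKX2-1 siRNA 1 and 968 and 896 with NKX2-1 siRNA 2, against 851, 873 and 748 with si-control. The SOX2 libraries overlapped the lowest control and the NKX2-1 libraries lay above all 3. The log2 changes were -0.21 (SE 0.0591, adjusted p = 0.00304) for SOX2 and 0.19 (SE 0.0591, adjusted p = 0.0120) for NKX2-1. Read alone, SOX2 siRNA 1 lowered TAGLN3, while with SOX2 siRNA 2 it was called only in some alternatives. The call for NKX2-1 was lost without si-control replicate 3 (0.12, adjusted p = 0.141) and without NKX2-1 siRNA 2 replicate 1 (adjusted p = 0.0646), within a range of 0.00129 to 0.161 over all alternatives.

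KIF5C and KIF1A encode neuronal kinesin heavy chains, the first of conventional kinesin and the second a carrier of synaptic vesicle precursors. KIF5C had 4916 and 5122 normalized counts with circRMST shRNA 1 and 5001 and 5372 with shRNA 2, against 3399.9 and 3221 with shGFP. KIF1A had 17429.5 and 16519.9 with shRNA 1 and 17393 and 16848 with shRNA 2, against 12477 and 13751 with shGFP. Both shRNAs gave overlapping levels of both motors, clear of the controls. The log2 changes were 0.62 (SE 0.0536, adjusted p = 9.95e-10) for KIF5C and 0.38 (SE 0.0484, adjusted p = 5.69e-07) for KIF1A.

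In the second table KIF5C fell for both targets and KIF1A was called for neither. KIF5C had 2191 and 2374 normalized counts with SOX2 siRNA 1, 1822 and 1887 with SOX2 siRNA 2, 1991 and 1957 with NKX2-1 siRNA 1 and 2234 and 2209 with NKX2-1 siRNA 2, against 2431, 2382 and 2400.3 with si-control. All 8 knockdown libraries lay below the 3 controls, the highest by little. The log2 changes of KIF5C were -0.23 (SE 0.0394, adjusted p = 1.98e-05) for SOX2 and -0.20 (SE 0.0394, adjusted p = 0.000186) for NKX2-1. Read alone, SOX2 siRNA 2 and NKX2-1 siRNA 1 lowered KIF5C. With SOX2 siRNA 1 and with NKX2-1 siRNA 2 it was called only in some alternatives. KIF1A had 32281 and 29127 with SOX2 siRNA 1, 24904 and 24242 with SOX2 siRNA 2, 25669.9 and 28321 with NKX2-1 siRNA 1 and 26225 and 25969.7 with NKX2-1 siRNA 2, against 26126, 26461 and 26086 with si-control. The SOX2 siRNAs lay on opposite sides of the controls, and their average log2 change was 0.07 (adjusted p = 0.0946). Without SOX2 siRNA 1 replicate 2 this change was 0.10 and was called (adjusted p = 0.00106, of a range of 0.00106 to 0.561). For NKX2-1 the log2 change of KIF1A was 0.02 (95% confidence interval -0.05 to 0.08, adjusted p = 0.732).

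RTN1, a reticulon that shapes the tubules of the endoplasmic reticulum in neurons and neuroendocrine cells, had the largest rise of the 9 genes after circRMST shRNAs. It had 2798 and 2568 normalized counts with shRNA 1 and 1619 and 1687 with shRNA 2, against 839 and 808 with shGFP. The groups formed separate steps and the log2 change was 1.35 (SE 0.0670, adjusted p = 6.43e-14). In the second table it had 960.1 and 916 with SOX2 siRNA 1, 667 and 706 with SOX2 siRNA 2, 1969.7 and 1994 with NKX2-1 siRNA 1 and 1457 and 1486 with NKX2-1 siRNA 2, against 1429, 1443 and 1440.5 with si-control. SOX2 libraries lay well below the controls, NKX2-1 siRNA 1 well above, and NKX2-1 siRNA 2 just above. RTN1 fell by 0.84 on the log2 scale after SOX2 siRNAs (SE 0.0448, adjusted p = 5.82e-15) and rose by 0.25 after NKX2-1 siRNAs (SE 0.0448, adjusted p = 6.02e-05).

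UCHL1, the neuronal ubiquitin hydrolase, moved least among the genes called for circRMST. It had 10746 and 9970.4 normalized counts with shRNA 1 and 8675 and 9164 with shRNA 2, against 7823 and 7689 with shGFP, a log2 change of 0.31 (SE 0.0488, adjusted p = 1.14e-05). Both shRNAs lay above the controls without overlap. In the second table it had 12186 and 11688 with SOX2 siRNA 1, 11829 and 11686 with SOX2 siRNA 2, 10092 and 10188 with NKX2-1 siRNA 1 and 10337 and 10233 with NKX2-1 siRNA 2, against 11260.2, 11008 and 11264 with si-control. SOX2 libraries lay just above the controls and NKX2-1 libraries below them. The log2 changes were 0.08 (SE 0.0282, adjusted p = 0.0132) for SOX2 and -0.13 (SE 0.0282, adjusted p = 0.000523) for NKX2-1. The rise after SOX2 siRNAs was not called without si-control replicate 2 (adjusted p = 0.0784) or with quantile normalization (0.02, adjusted p = 0.653), of a range of 0.00195 to 0.653.

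**Figure D3:**
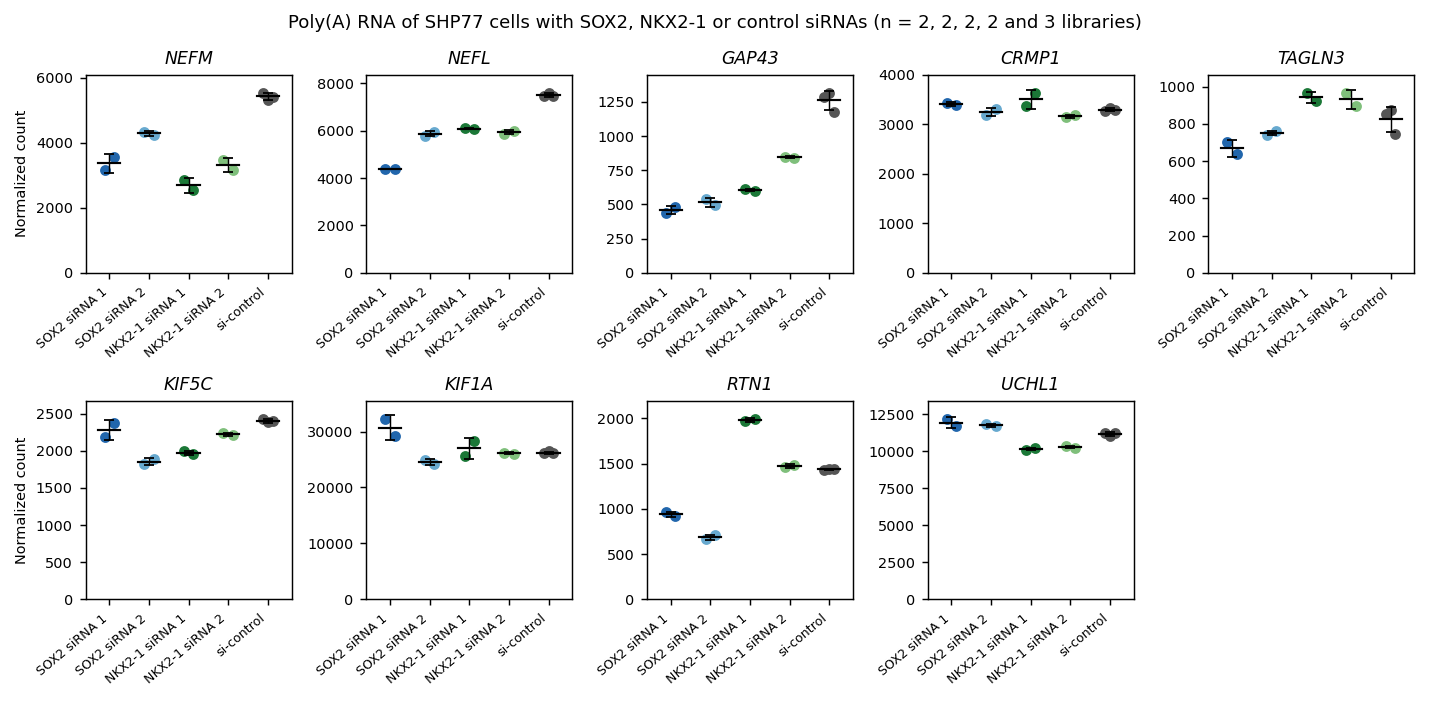
Normalized count (vertical axes, from 0) of the 9 genes of the second table in every library with SOX2 siRNA 1 or 2, NKX2-1 siRNA 1 or 2, or si-control; points are libraries, bars the mean and whiskers the SD. GAP43, NEFM and NEFL are highest in si-control, RTN1 is highest with NKX2-1 siRNA 1 and lowest with SOX2 siRNA 2, and CRMP1 is level.

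Scaling and depth bear on the smaller changes. When the shRNA libraries were scaled to equal totals, the median log2 change of all genes was -0.14, with 3636 genes called higher and 6513 lower against 5294 and 4936 otherwise, and KIF1A and UCHL1 had changes of 0.23 and 0.16, both still called. Those are means over both shRNAs, and with equal totals UCHL1 was not called for shRNA 2 alone (0.06, adjusted p = 0.438). With mitochondrial and RN7SL genes left out of the totals, KIF1A had 0.32 and UCHL1 0.25. The share of RN7SL reads was 0.379 to 0.467% in circRMST shRNA libraries and 0.180 to 0.186% in shGFP, and its part in the results was not tested further. After NKX2-1 siRNAs, equal totals gave 4224 genes called higher and 2643 lower, against 3092 and 3592 otherwise, and UCHL1 a change of -0.07.

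SOX2 and NKX2-1 knockdown were also compared with each other. RTN1 was 2.13-fold lower after SOX2 siRNAs than after NKX2-1 siRNAs (log2 change -1.09, SE 0.0415, adjusted p = 4.17e-18). GAP43 (-0.55), TAGLN3 (-0.40) and NEFL (-0.25) were also lower, while NEFM (0.35) and UCHL1 (0.21) were higher, with adjusted p from 1.35e-09 to 4.69e-07. The call was thus higher for 2 and lower for 4 of the 9 genes, against 27.9% higher and 28% lower among all genes tested, and for 4 of the 9 the groups did not overlap, against 35.2% of all genes. KIF5C, KIF1A and CRMP1 were not called, with log2 differences of -0.03, 0.05 and 0.00. Their 95% confidence intervals were -0.10 to 0.05, -0.01 to 0.11 and -0.07 to 0.07.

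Each reagent was then read on its own. Against shGFP, circRMST shRNA 1 raised 7 and lowered 2 of the 9 genes (all genes, 26.7% higher and 24.2% lower), and shRNA 2 raised 7 and lowered 1, with TAGLN3 not called (24.5% and 22.9%). The call of TAGLN3 with shRNA 1 was lost without shGFP replicate 2 or shRNA 1 replicate 1, and that of UCHL1 with shRNA 2 without shGFP replicate 2 or shRNA 2 replicate 2 (adjusted p 0.162, 0.141, 0.0513 and 0.0839, of ranges of 0.000882 to 0.162 and 0.00379 to 0.438). With shRNA 2, NEFM lost its call in limma without a trend (adjusted p = 0.0511), and UCHL1 lost it there (0.121) and with equal totals (0.438). The sizes differed between the shRNAs for 6 of the 9. NEFM rose 3.29-fold with shRNA 1 and 1.49-fold with shRNA 2, GAP43 2.87-fold and 1.42-fold, NEFL 2.37-fold and 1.46-fold, and RTN1 3.25-fold and 2.01-fold. Directly compared, NEFM was 1.15 higher on the log2 scale with shRNA 1 than with shRNA 2 (SE 0.0850, adjusted p = 1.06e-09), GAP43 1.02 (SE 0.0875, adjusted p = 1.13e-08), RTN1 0.70 (SE 0.0774, adjusted p = 5.50e-07) and NEFL 0.69 (SE 0.0574, adjusted p = 6.57e-09). UCHL1 was 0.22 higher (adjusted p = 0.00862) and CRMP1 0.28 lower with shRNA 1 (log2 difference -0.28, adjusted p = 0.0180). These smaller differences depended on the processing, and the difference of NEFM lost its call in limma without a trend (adjusted p = 0.0527). UCHL1 lost its call in 6 of 18 alternatives, among them those without shRNA 1 replicate 1 (0.16, adjusted p = 0.133) and without shRNA 2 replicate 1 (0.18, adjusted p = 0.129), over a range of 0.00237 to 0.209. CRMP1 lost it in 4, among them those without shRNA 1 replicate 2 (-0.22, adjusted p = 0.177) and without shRNA 2 replicate 1 (-0.22, adjusted p = 0.169), over a range of 0.00417 to 0.177. That made 5 genes higher and 1 lower with shRNA 1 than with shRNA 2, against 10.9% and 8.2% of all genes. KIF5C and KIF1A showed no such step, with differences of -0.05 (95% confidence interval -0.17 to 0.08) and -0.01 (-0.13 to 0.10), and TAGLN3 had -0.19 (adjusted p = 0.330).

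**Figure D4:**
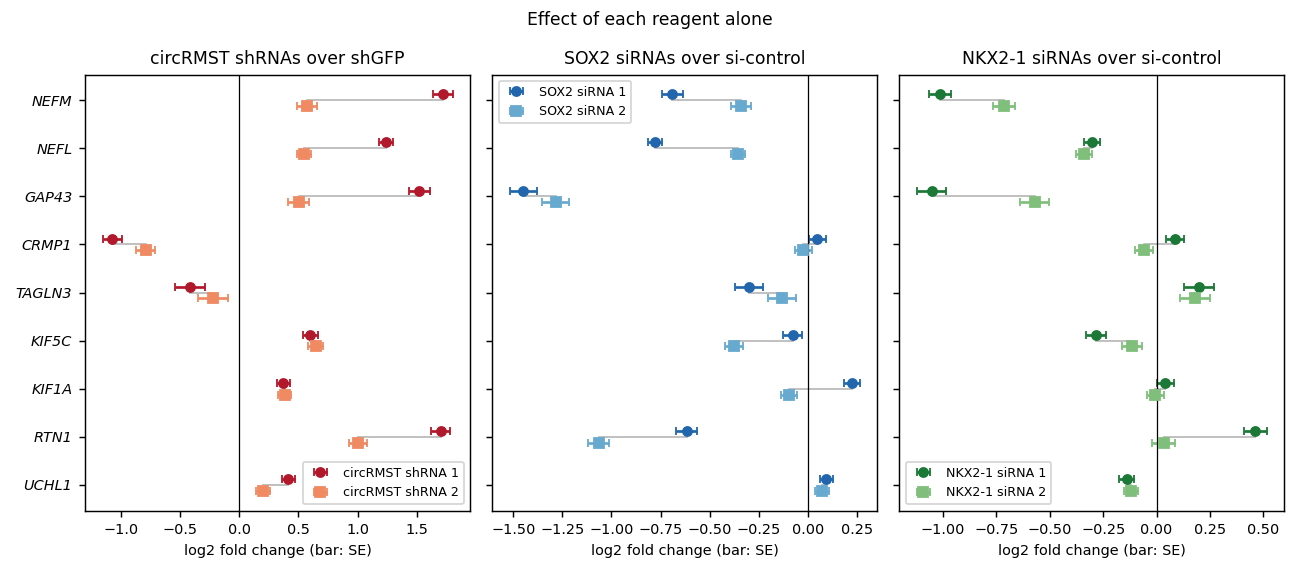
Log2 fold change with its SE (horizontal axes) of the 9 genes for each reagent alone over its control, in 3 panels for circRMST, SOX2 and NKX2-1; circles are reagent 1 and squares reagent 2. NEFM, NEFL, GAP43 and RTN1 lie apart for the circRMST shRNAs while KIF5C and KIF1A coincide, and RTN1 lies apart for both siRNA targets.

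Against si-control, SOX2 siRNA 1 raised 2 and lowered 5 of the 9 genes (all genes, 25.8% higher and 27.3% lower), and SOX2 siRNA 2 raised 0 and lowered 5 (24.4% and 24.7%). UCHL1, counted as raised by siRNA 1, lost its call in 6 of 23 alternatives, among them those without si-control replicate 2 (adjusted p = 0.0826) and without SOX2 siRNA 1 replicate 1 (adjusted p = 0.161), over a range of 0.00525 to 0.340, and with siRNA 2 it was called in 4. The 5 genes lowered were not the same for both SOX2 siRNAs, with TAGLN3 called for siRNA 1 only and KIF5C for siRNA 2 only. GAP43 fell 2.73-fold with SOX2 siRNA 1 and 2.43-fold with siRNA 2. NEFM fell 1.61-fold and 1.27-fold, and NEFL 1.72-fold and 1.28-fold. RTN1 went the other way in size, 1.53-fold lower with siRNA 1 and 2.09-fold lower with siRNA 2. Between the SOX2 siRNAs, RTN1 (log2 difference 0.45, adjusted p = 1.65e-06), KIF1A (0.32, adjusted p = 3.51e-06) and KIF5C (0.30, adjusted p = 0.000107) were higher with siRNA 1, and NEFL (-0.42, adjusted p = 4.75e-09) and NEFM (-0.35, adjusted p = 5.75e-05) were lower. All genes had 8.08% higher and 10.4% lower in that comparison. KIF1A rose with siRNA 1 alone (0.23, adjusted p = 2.58e-05), and with siRNA 2 its change was -0.09 (adjusted p = 0.0522).

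Against si-control, NKX2-1 siRNA 1 raised 2 and lowered 5 of the 9 genes (all genes, 17.4% higher and 21.5% lower), and NKX2-1 siRNA 2 raised 0 and lowered 4 (16% and 17.5%). For TAGLN3 this contrast depended on the processing. With siRNA 2 it was at 0.18 (adjusted p = 0.0510) and was called in 11 of 23 alternatives, over a range of 0.0122 to 0.365. With siRNA 1 it was at 0.20 (adjusted p = 0.0270) and lost its call in 6, among them those without si-control replicate 3 (adjusted p = 0.170) and without NKX2-1 siRNA 1 replicate 1 (0.172) or 2 (0.0511), over a range of 0.00164 to 0.191. UCHL1 with siRNA 2 lost its call without NKX2-1 siRNA 2 replicate 2 (adjusted p = 0.0700, of a range of 3.44e-06 to 0.0700). NEFM fell 2.02-fold with siRNA 1 and 1.64-fold with siRNA 2, and GAP43 2.08-fold and 1.49-fold. NEFL fell 1.23-fold and 1.27-fold and did not differ by the test between the siRNAs (log2 difference 0.04, adjusted p = 0.548, 95% confidence interval -0.04 to 0.12). RTN1 rose 1.38-fold with siRNA 1 (adjusted p = 7.53e-08), while with siRNA 2 its log2 change was 0.03 (adjusted p = 0.674). The difference between these siRNAs was 0.43 for RTN1 (SE 0.0586, adjusted p = 2.28e-06). In all, 2 of the 9 genes were higher and 3 lower with siRNA 1 than with siRNA 2, against 11.7% and 14.8% of all genes. Of these 5, CRMP1 and KIF5C each lost the call without NKX2-1 siRNA 1 replicate 2 and without either NKX2-1 siRNA 2 library, with adjusted p up to 0.284 and 0.124 over the alternatives. NKX2-1 itself stood 1.24-fold higher with siRNA 1 than with siRNA 2 (adjusted p = 0.000579).

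Transcription factors with a known part in these cells moved beside the 9 genes. REST, which represses neuronal genes outside neurons, rose 1.89-fold after circRMST shRNAs (adjusted p = 0.000223) and fell 1.86-fold after SOX2 siRNAs (adjusted p = 0.000521) and 2.11-fold after NKX2-1 siRNAs (adjusted p = 0.000121). With SOX2 siRNA 2 alone the fall of REST was not called (log2 change -0.51, adjusted p = 0.0881), against -1.28 with SOX2 siRNA 1 (adjusted p = 7.47e-05). REST was low there, with means of 26.4 normalized counts with SOX2 siRNA 1, 45.8 with SOX2 siRNA 2 and 66.15 with si-control. SOX2 rose 1.94-fold after NKX2-1 siRNAs (adjusted p = 1.43e-14), and NKX2-1 rose 1.16-fold after SOX2 siRNAs (adjusted p = 0.00065). After circRMST shRNAs SOX2 rose 1.18-fold (adjusted p = 0.00238) and NKX2-1 fell 1.33-fold (adjusted p = 0.000166). Read alone, shRNA 1 gave no call for SOX2 (adjusted p = 0.121) and shRNA 2 none for NKX2-1 (adjusted p = 0.095). The part of these factors in the changes of the 9 genes was not tested.

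The relatives of the 9 genes were read in 8 lists, and no list was tested as a set. Over all genes tested, 27.8% were called higher and 25.9% lower after circRMST shRNAs. These shares were 27.6% and 28.7% after SOX2 siRNAs and 18.5% and 21.4% after NKX2-1 siRNAs. The lists are short, and their counts are to be read against these shares. Fold changes there are means over both reagents, which for some genes differed in size. Among intermediate filaments, NEFH, the heavy neurofilament chain, rose 3.18-fold after circRMST shRNAs, and SYNM and PRPH rose 3.15-fold and 3.06-fold (adjusted p from 5.08e-14 to 5.62e-09, and 9.35e-15 for NEFH). The size of the rise of NEFH differed among libraries, with 937 to 2918 normalized counts in the circRMST shRNA libraries, against 519 to 532 with shGFP. Of 6 tested, 4 rose and 2 fell, with a median of 0.96. INA, another neuronal filament chain, was a fall (-0.53, adjusted p = 2.51e-09). VIM, the other fall, had a mean of 2.64 with the shRNAs and 32.3 with shGFP. Of 31 genes on the lists that fell after circRMST shRNAs, VIM, BASP1, DPYSL4 and RTN4R were low genes whose drop lay within the 38.7 normalized counts given above. After SOX2 siRNAs NEFH rose 1.82-fold (adjusted p = 1.19e-13), while NEFM and NEFL fell, and after NKX2-1 siRNAs NEFH fell 1.42-fold (adjusted p = 9.81e-09). The size of that fall differed among libraries, with 459 to 825 normalized counts with NKX2-1 siRNAs, against 871 to 925 with si-control. NES, the filament of neural progenitors, fell 2.22-fold after SOX2 siRNAs and 2.40-fold after NKX2-1 siRNAs (adjusted p = 5.49e-20 and 1.69e-20). Of 5 filament genes tested there, 3 rose and 1 fell after SOX2 siRNAs and 2 rose and 2 fell after NKX2-1 siRNAs. With NKX2-1 siRNA 1 alone, NES was the only filament gene called lower, so the fall of NEFH was not called with that siRNA.

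Of the stathmins and relatives of CRMP1, DPYSL3 and STMN1 rose after the siRNAs of both targets. After SOX2 and after NKX2-1 siRNAs, 4 of 6 tested rose and 0 fell, with medians of 0.42 and 0.39. DPYSL3 rose 2.04-fold and 2.47-fold (adjusted p = 3.91e-20 and 5.23e-22), and STMN1 rose 1.57-fold and 1.64-fold (adjusted p = 5.41e-16 and 1.86e-16). With quantile normalization 1 of the 6 fell after SOX2 siRNAs. After circRMST shRNAs 2 rose and 3 fell of 6 (1 and 3 with equal totals), with DPYSL2 at 0.49 and STMN1 at -0.28 (adjusted p = 3.18e-09 and 7.95e-06).

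Growth cone genes moved in both directions beside GAP43. After circRMST shRNAs 6 of 15 rose and 6 fell, with MARCKSL1, a substrate of protein kinase C, 4.47-fold lower (adjusted p = 4.98e-18) and PAK3 2.05-fold higher (adjusted p = 2.50e-10). BASP1 and PALM had means of 0.77 and 2.20 with the shRNAs and 32.9 and 64.8 with shGFP. After SOX2 siRNAs 6 of 14 rose and 2 fell (3 and 2 with quantile normalization), and after NKX2-1 siRNAs 4 rose and 3 fell. SHTN1, which couples actin flow to adhesion, had means of 599 with SOX2 siRNA 1 and 1274 with SOX2 siRNA 2, against 1111 with si-control, on both sides of the control (log2 changes -0.89 and 0.20, adjusted p = 4.2e-13 and 0.00556). After NKX2-1 siRNAs SHTN1 rose (0.35, adjusted p = 1.28e-06).

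Among neuronal tubulins and microtubule-associated proteins, 7 of 17 rose and 7 fell after circRMST shRNAs (5 and 9 with equal totals). MAP6 and MAP7 rose 3.69-fold and 3.67-fold, and DCX, a protein of migrating neurons, fell 3.58-fold (adjusted p = 9.68e-17, 1.86e-18 and 1.18e-06). Over the circRMST shRNA libraries DCX ran from 21.1 to 110 normalized counts, against 178 to 180 with shGFP. MAP7 ran from 4357 to 10329, against 1822 to 1858 with shGFP. After SOX2 siRNAs 6 rose and 5 fell, led by MAP1A at 0.55 (adjusted p = 4.50e-14). After NKX2-1 siRNAs 8 rose and 2 fell, with MAP6 at 0.81 and MAP7 at -0.75 (adjusted p = 5.03e-11 and 8.82e-14). The count of falls after SOX2 siRNAs was 4 with equal totals and 9 when mitochondrial and RN7SL genes were left out of them.

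Kinesin and dynein transport genes hold the relatives of KIF5C and KIF1A. After circRMST shRNAs 16 of 30 rose and 6 fell, with a median of 0.22, though the split was 10 up and 8 down when libraries had equal totals. TRAK2, a mitochondrial adaptor of kinesin, rose 1.93-fold and DYNC1H1, the dynein heavy chain, 1.85-fold (adjusted p = 2.37e-12 and 8.78e-14), while KIF17 fell 3.57-fold (adjusted p = 2.38e-06). After SOX2 siRNAs 9 rose and 10 fell (6 and 12 with quantile normalization), and after NKX2-1 siRNAs 6 rose and 10 fell, with medians of 0.03 and -0.05. TRAK2 fell 1.45-fold after NKX2-1 siRNAs (adjusted p = 9.22e-11).

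Reticulons, their receptors and other shapers of the endoplasmic reticulum were read beside RTN1. After circRMST shRNAs 5 of 12 rose and 3 fell (5 and 5 with equal totals), with ATL1 at 0.80 and RTN4 at 0.65 (adjusted p = 3.39e-09 and 1.41e-11). LINGO1 and RTN4R, which fell, had means of 1.26 and 3.71 with the shRNAs and 60.3 and 35.9 with shGFP. After SOX2 siRNAs 1 of 11 rose and 4 fell (2 and 4 with quantile normalization), with ATL1 at -0.44 and REEP2 at -0.48 (adjusted p = 1.64e-06 and 2.18e-09), and after NKX2-1 siRNAs 5 rose and 1 fell.

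Of 7 ubiquitin hydrolases and ubiquitin genes, 2 rose and 2 fell after circRMST shRNAs (1 and 4 with equal totals), with RPS27A at -0.40 (adjusted p = 1.73e-07). After SOX2 siRNAs 4 of 6 rose and 0 fell, although 2 fell with quantile normalization. After NKX2-1 siRNAs 2 rose and 3 fell, a split of 3 up and 0 down under equal totals. Of 4 relatives of TAGLN3 in the calponin family, 1 rose and 2 fell after circRMST shRNAs. After SOX2 siRNAs 4 of 4 fell (3 with quantile normalization), but SOX2 siRNA 1 alone called 4 lower and SOX2 siRNA 2 alone 1. CNN2 had means of 551 with SOX2 siRNA 1 and 1467 with SOX2 siRNA 2, against 1800.4 with si-control (log2 changes -1.71 and -0.29, adjusted p = 1.43e-19 and 4.83e-05). After NKX2-1 siRNAs 1 of the 4 rose and 2 fell, led by TAGLN2 at -0.78 (adjusted p = 7.27e-15).

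**Figure D5:**
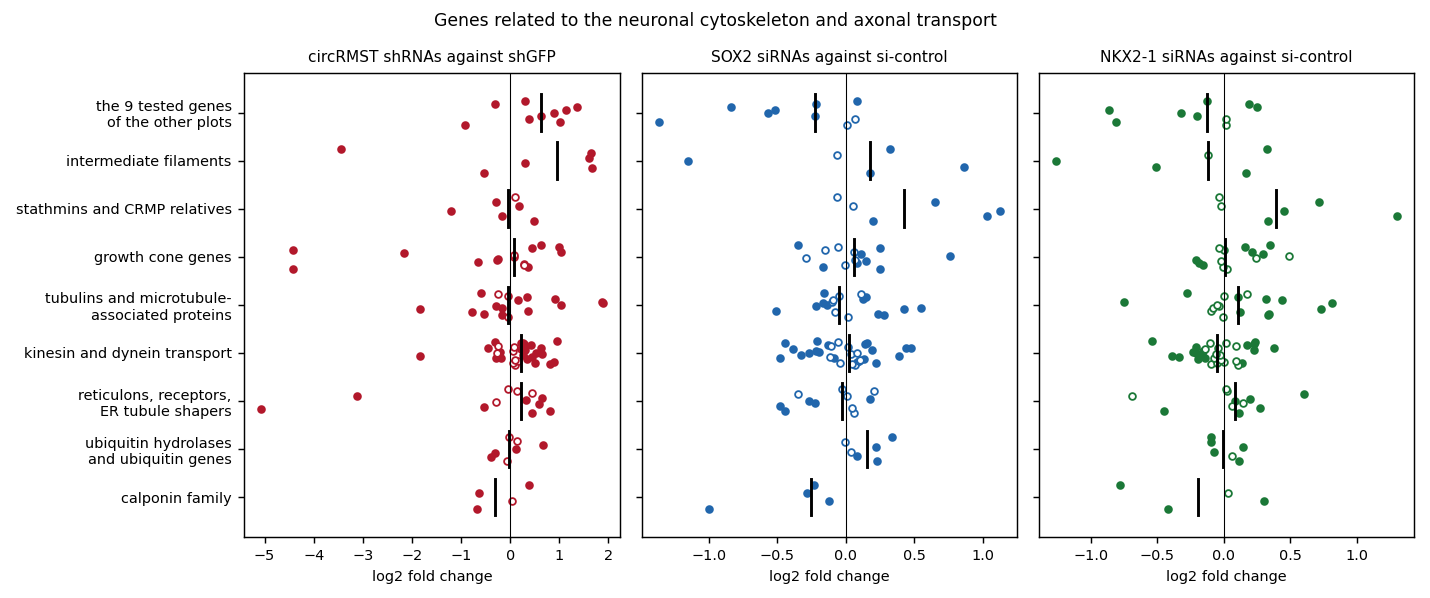
Log2 fold change (horizontal axes) of every tested gene of 8 lists and of the 9 genes of the other plots, in 3 panels for circRMST shRNAs over shGFP and SOX2 and NKX2-1 siRNAs over si-control; filled points were called, open points were not, and bars are list medians. For circRMST, 4 of 6 intermediate filaments and 7 of the 9 genes were called higher. For each siRNA target, 4 of 6 stathmins and CRMP relatives were called higher. Over all genes tested, 27.8% were called higher for circRMST, 27.6% for SOX2 and 18.5% for NKX2-1.

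Across the 17 libraries of both tables, centred within each table, the genes whose profile was most like a given gene were ranked among 12295 genes by Pearson's r on log2 values, as a description of libraries that share the cell line and, within a table, the kit and the control. GAP43 was followed most closely by TANC2 (0.978), LGMN (0.972) and KHDRBS3 (0.965), and RTN1 by CRYAB (0.977), PTPRF (0.961) and RNF187 (0.958). NEFL was followed by ANXA2 (0.972), BHLHE40 (0.962) and TPCN1 (0.962), and NEFM by RAET1E (0.961), SSR1 (0.959) and IGF2R (0.949). KIF5C was followed by HLTF (0.968), KIF1A by ATP6V0E2 (0.952), UCHL1 by ZCCHC2 (0.951) and TAGLN3 by PIPOX (0.911). CRMP1 was followed by LMX1B (0.984), but over the siRNA libraries alone that value was 0.551, where CRMP1 hardly moved. Among the 9 genes themselves, GAP43 and NEFL were the closest pair (0.896), and the neighbours NEFM and NEFL came next (0.850, or 0.594 over the siRNA libraries).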

How the data were processed

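RNA-seq libraries of SHP77 cells were grouped by the reagent in the labels. Per the labels' protocols, shRNA cells gave 1 µg of RNA to a stranded total RNA kit and siRNA cells 500 ng to a TruSeq RNA V2 kit, which selects poly(A) RNA, with reads of 150 bases. The deposited signal is a count per gene divided by a size factor per library, normalized by the authors separately in each table. Tools named by the authors, per the submitters' processing notes, are DESeq2, STAR 2.5.2b and cutadapt 2.5, and the build is hg38. How genes were counted, with which annotation and strand setting, is not given in the sources used here, so counts of genes that overlap or have an antisense partner or close paralog are uncertain. Values were whole multiples of a step per library (100% within 0.05 reads), which gave back whole reads and a depth of 15.5 to 57.4 M reads per library.

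Features of non-human sequence (55 and 38) and pseudoautosomal copies on chromosome Y (7 and 11) were left out, and 98.5% of gene IDs had a symbol. Genes with a mean of at least 10 were fitted as log2(normalized count + 1) with limma 3.58.1 (R 4.3.3), every library of the table entering with its own group mean, and eBayes with a trend. Fold changes on this scale understate the change of low genes. Each knockdown is the mean over both of its reagents, minus the control. P-values are two-sided, adjusted by Benjamini-Hochberg over all genes of the table, with a threshold of 0.05. edgeR 4.0.16 (quasi-likelihood) and DESeq2 1.42.0 on the recovered reads were alternatives, beside other pseudocounts (0.5, 5), filters, scalings, a replicate block and leaving out each library. The fit was also run on simulated counts with the same dispersion for every gene, which does not check false calls at the spread of these libraries. Replicates were not copies of each other, with chi-square per degree of freedom of 1.52 to 6.02 where counting error gives about 1. The series text calls replicates biological, and nothing states that they were separate cultures, so p-values reflect spread among libraries only, and that spread may be technical. No test was run between the tables.

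The genes and lists were chosen with earlier results of these data known. Named are the genes of the opening, from each list up to 3 genes that passed in a comparison with the largest change and a mean of at least 50, the 3 genes most like each gene in profile, and the targeted genes. VIM, INA, BASP1, PALM, LINGO1, RTN4R, LUM and REST were named after their values were seen. Some genes that this rule names are not reported here.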

Additional observations from a re-analysis of the deposited data

How the results depend on the processing

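Of 36 results of the 9 genes in the knockdown comparisons and SOX2 against NKX2-1, 29 were called, 26 of them under every alternative. The 3 lost in some (TAGLN3 for circRMST and NKX2-1, UCHL1 for SOX2) are given above, and 0 called results changed sign. Of those not called, 3 were gained in some with the same sign. CRMP1 for SOX2 against NKX2-1 was gained with the other sign under quantile normalization. Of 81 results of single reagents, against a control or against the other reagent, 56 were called and 44 kept. The shares of all genes called stand with each comparison above.

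Without a filter, 10409 genes were called lower for circRMST, against 4936. TAGLN3 was then not called (adjusted p = 0.0787). Of the 9 genes, those lower for circRMST numbered 1 without a trend and 1 to 2 when a library was left out. Those higher for SOX2 numbered 0 with quantile normalization, with equal totals without mitochondrial and RN7SL genes, and without a trend, and 0 to 2 when a library was left out. Those higher for NKX2-1 numbered 1 without a filter, without a trend and with a replicate block, and 1 to 2 when a library was left out. A group left with 1 library is assumed to vary like the others.

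Replicate numbers did not pair the libraries (correlations of deviations -0.042 to 0.047 in the first table and -0.109 to 0.024 in the second). The block gave 5236 higher and 4891 lower genes for circRMST, 4078 and 4358 for SOX2, and 2421 and 2980 for NKX2-1, and TAGLN3 for NKX2-1 had 0.121 (adjusted p = 0.161).

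The sign changes were all of results not called in the main fit, and the cause was not tested. With equal totals, then without mitochondrial and RN7SL genes, then with quantile normalization, SOX2 against NKX2-1 gave CRMP1 -0.0533, -0.0532 and -0.0831 (this last called, adjusted p = 0.0358) and KIF1A -0.00408, -0.00391 and -0.0455, and NKX2-1 siRNA 1 against siRNA 2 gave UCHL1 0.041, 0.0244 and 0.0876. CRMP1 for SOX2 against NKX2-1 was -0.00828 in edgeR and -0.00227 in DESeq2. CRMP1 for SOX2 was -0.0188 with equal totals without mitochondrial and RN7SL genes and -0.0487 with quantile normalization, which also gave CRMP1 -0.0141 for SOX2 siRNA 1 and UCHL1 -0.00712 for SOX2 siRNA 2. KIF1A for NKX2-1 siRNA 2 was 0.0208 with equal totals.

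Leaving out a library gave these ranges. For circRMST shRNA 1 against shRNA 2, KIF5C ran from -0.0982 to 0.00477 and KIF1A from -0.0513 to 0.026. For NKX2-1, CRMP1 ran from -0.0155 to 0.041 and KIF1A from -0.0189 to 0.052. For SOX2 against NKX2-1, CRMP1 ran from -0.0282 to 0.0283 and KIF5C from -0.0553 to 0.00245. CRMP1 ran from -0.047 to 0.00274 for SOX2 siRNA 2, and KIF1A from -0.0308 to 0.111 for NKX2-1 siRNA 1 and from -0.014 to 6.83e-05 for siRNA 2. UCHL1 ran from -0.00858 to 0.0516 for SOX2 siRNA 1 against siRNA 2. For NKX2-1 siRNA 1 against siRNA 2, TAGLN3 ran from -0.0374 to 0.0744 and KIF1A from -0.0238 to 0.118.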

Other observations

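The relatives of the 9 genes also differed between the siRNA targets. NEFH averaged 1636 normalized counts with SOX2 siRNAs and 652 with NKX2-1 siRNAs, 2.59-fold higher (limma, adjusted p = 9.05e-19), with no overlap. Its NKX2-1 siRNA libraries differed widely, from 459 to 825. MAP7 was 1.58-fold higher and MAP6 1.97-fold lower after SOX2 siRNAs than after NKX2-1 siRNAs (adjusted p = 1.22e-13 and 8.84e-14). KIF5B, the ubiquitous relative of KIF5C, averaged 6952 with SOX2 siRNAs and 4979 with NKX2-1 siRNAs (adjusted p = 4.22e-13), and KIF17 150.1 and 86.7 (adjusted p = 1.77e-06). SHTN1 was 1.62-fold lower and UCHL5 1.35-fold higher after SOX2 siRNAs (adjusted p = 3.13e-13 and 3.45e-11). For SHTN1 most of this came from SOX2 siRNA 1, with a mean of 599. Its mean was 1274 with SOX2 siRNA 2, against 1417 with NKX2-1 siRNAs.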
